A study of Mus musculus with 12 samples.

Results

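The RNAs described here are 10 mouse transcripts that are known to be held in the cell nucleus, in full or in part. They are the long noncoding RNAs Malat1, Neat1, Firre, Kcnq1ot1, Miat and Snhg11, and the transcripts of Clk1, Clk4, Ogt and Rsrp1. Snhg11 is counted here with the noncoding RNAs, although the annotation used, GENCODE M21, lists it as protein-coding. The 10 were found by gene symbol in a table of 52550 Ensembl genes, where each had 1 entry. All 10 were among the 17700 genes with enough counts to be tested. They were selected on their measured values: the 10 were picked because their counts were lower together in cells on the scaffold than in cells on the plate in the same medium. Their difference between those groups is therefore described below without a test. Where the RNAs sit in the cell was not measured.

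RNA came from wild-type mouse primary cells of the intestinal muscle layers after 28 days in culture and from muscle strips, with 3 biologically independent libraries in each of 4 groups. M scaffold cells grew on an electrospun gelatin scaffold in M medium, the serum-free differentiation medium. M plate cells had the same medium on a well plate. This medium is Advanced DMEM/F-12 with N2, B27 without vitamin A, ABAM, HEPES at 10 mM, GlutaMAX at 2 mM, N-acetylcysteine at 1 mM, the ROCK inhibitor Y27632 at 10 µM, R-spondin1 (1 µg/ml), which raises Wnt signalling, and Noggin (100 ng/ml), which blocks BMP signalling. P plate cells grew on a well plate in P medium, the proliferation medium, which is DMEM with 10% FBS and ABAM. Strips of intestinal muscle were the positive control, although their labels name day 28 and a cultured-cell source too. The cultures are mixed primary cells, so fewer cells of a type and less RNA per cell cannot be told apart.

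Malat1 lies in nuclear speckles, bodies rich in splicing factors, and Neat1 is the RNA scaffold around which paraspeckles form. Clk1, Clk4 and Ogt are protein-coding genes of which a part of the polyadenylated transcripts keeps an intron and stays in the nucleus until it is spliced or degraded. Such RNAs are read in bulk RNA-seq as counts per gene, which do not separate spliced from unspliced or nuclear from cytoplasmic molecules.

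Malat1 and Neat1 are neighbours on chromosome 19 and end in a similar way, which is shown because it sets them apart from the polyadenylated transcripts. Both long transcripts are cut at the 3′ end by RNase P and have no poly(A) tail there, and a triple helix of U-rich and A-rich stretches protects the end. The Malat1 stretch lies at chr19:5795982-5796111 on the minus strand of GRCm38, bases 6562 to 6691 of the 6983-base full-length transcript in GENCODE M21. The Neat1 stretch lies at chr19:5824708-5824837 on the minus strand, bases 20642 to 20771 of the 20771-base long transcript. Capitals mark runs of at least 10 bases that a search found in both stretches, 40 bases or 30.8% of each 130-base stretch. The U-rich runs are the first pair in capitals, written with T, and the A-rich run closes each stretch.
Malat1: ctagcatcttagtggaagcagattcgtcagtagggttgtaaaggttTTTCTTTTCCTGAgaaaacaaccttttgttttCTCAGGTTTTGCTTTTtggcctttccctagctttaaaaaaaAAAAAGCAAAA
Neat1: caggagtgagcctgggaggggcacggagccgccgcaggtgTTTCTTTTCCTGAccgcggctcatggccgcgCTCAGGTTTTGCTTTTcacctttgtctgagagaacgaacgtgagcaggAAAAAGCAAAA
The shorter Neat1 isoform is polyadenylated, and the counts per gene do not separate it from the long one.

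Promoter windows of 300 bases, from 250 bases before to 50 after the RefSeq start on GRCm38.p6, were matched for 8 of the 10 genes. Neat1 and Clk1 were not matched. Windows of 4 genes are printed because they belong to RNAs that were low together and hold different motifs. Capitals mark matches, on either strand, to the CRE (TGACGTCA), the HIF motif (ACGTG), the GC box (GGGCGG) or the CCAAT box (CCAAT). Malat1 is chr19:5802623-5802922 on the minus strand, Kcnq1ot1 is chr7:143296498-143296797 on the minus strand, Clk4 is chr11:51262864-51263163 on the plus strand, and Rsrp1 is chr4:134923375-134923674 on the plus strand.
Malat1: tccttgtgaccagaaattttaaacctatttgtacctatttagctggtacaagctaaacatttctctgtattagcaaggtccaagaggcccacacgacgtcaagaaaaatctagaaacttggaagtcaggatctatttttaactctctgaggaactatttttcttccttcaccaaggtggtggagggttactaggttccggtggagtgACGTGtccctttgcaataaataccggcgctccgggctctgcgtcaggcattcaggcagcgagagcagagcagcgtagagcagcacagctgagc
Kcnq1ot1: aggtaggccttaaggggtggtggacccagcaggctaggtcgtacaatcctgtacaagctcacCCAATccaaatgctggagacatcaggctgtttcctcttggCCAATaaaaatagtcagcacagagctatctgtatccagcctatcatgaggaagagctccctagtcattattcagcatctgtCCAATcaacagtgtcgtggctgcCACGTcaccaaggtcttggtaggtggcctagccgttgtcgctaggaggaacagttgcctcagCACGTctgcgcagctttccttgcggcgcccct
Clk4: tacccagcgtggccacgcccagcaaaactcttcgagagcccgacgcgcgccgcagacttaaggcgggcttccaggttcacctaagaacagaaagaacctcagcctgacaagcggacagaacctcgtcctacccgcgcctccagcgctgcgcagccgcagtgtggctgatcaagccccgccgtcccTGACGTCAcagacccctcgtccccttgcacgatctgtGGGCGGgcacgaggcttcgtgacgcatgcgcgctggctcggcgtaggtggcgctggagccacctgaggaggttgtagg
Rsrp1: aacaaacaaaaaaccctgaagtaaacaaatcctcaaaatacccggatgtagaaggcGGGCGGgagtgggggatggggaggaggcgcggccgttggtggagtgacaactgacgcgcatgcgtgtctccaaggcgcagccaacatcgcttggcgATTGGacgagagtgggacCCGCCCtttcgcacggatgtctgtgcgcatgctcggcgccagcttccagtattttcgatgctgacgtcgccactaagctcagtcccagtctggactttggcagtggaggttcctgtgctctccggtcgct
The windows shared no single motif. The CRE was found in 1 of the 8 genes, Clk4, against 1.79% of all 32851 windows. The HIF motif was found in 3, Firre, Kcnq1ot1 and Malat1, against 19.6% of windows. The GC box was found in 5, Clk4, Firre, Miat, Ogt and Rsrp1, against 35.7% of windows. The CCAAT box was found in 2, Kcnq1ot1 and Rsrp1, against 37.4% of windows. The E-box (CACGTG), which contains the HIF letters, was found in Firre alone, against 7.15% of windows. The AP-1 motif (TGANTCA), the heat shock element (GAANNTTC), the ETS motif (CCGGAAG) and the TATA box (TATAAA) were found in 0 of the 8, against 7.81%, 7.86%, 8.86% and 13.6% of windows. A match is a run of letters and not a binding site.

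Counts assigned to genes ranged from 21396485 to 116643512 per library, and 3 counts, the limit that a count of 0 allows, came to 0.0271 to 0.125 CPM, the count scaled to the size of the library. M scaffold replicate 3 was the deepest library and lay apart from the other two M scaffold libraries on the second principal component, at -31.8 against -61.5 and -68.0. Its endothelial markers summed to 246 CPM, against 1633 and 1088 CPM in M scaffold replicates 1 and 2. Its macrophage markers summed to 3618 CPM, against 1799 and 1505 CPM. P plate replicate 1 had summed macrophage marker levels of 17923 CPM, against 3392 and 2011 CPM in the other P plate libraries. Reads outside annotated features made up 4.48%, 5.12% and 4.84% of M scaffold libraries, 6.44%, 6.08% and 5.73% of M plate libraries, 4.20%, 5.89% and 5.29% of P plate libraries and 7.87%, 7.20% and 6.82% of strips libraries. Library sizes for CPM were scaled by TMM factors and errors are SD over 3 libraries.

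Together the 10 RNAs took a small share of the counts, and that share was lowest in M scaffold. Their summed level was 399, 507 and 707 CPM in M scaffold and 1401, 1386 and 1457 CPM in M plate. It was 1444, 1551 and 935 CPM in P plate and 1246, 1095 and 864 CPM in strips. All 3 M scaffold libraries lay below the other 9. As a share of gene counts, the 10 made up 0.0400% to 0.0672% in M scaffold, 0.134% to 0.142% in M plate, 0.0873% to 0.154% in P plate and 0.0976% to 0.144% in strips. All 10 were lower in every M scaffold library than in every M plate library, where 17.4% of the genes tested showed the same pattern, and this is what chose them. In the edgeR fit over all genes, 1.64% of genes were called lower and 1.53% higher at an adjusted p under 0.05. No call is given for the 10, since this difference chose them. The median log2 fold change of the 10 was -1.31, with a range of -1.83 to -0.68, and the median of all genes tested was 0.01. Without M scaffold replicate 3 the median was -1.45, and without M scaffold replicate 1 it was -1.06.

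**Figure D1:**
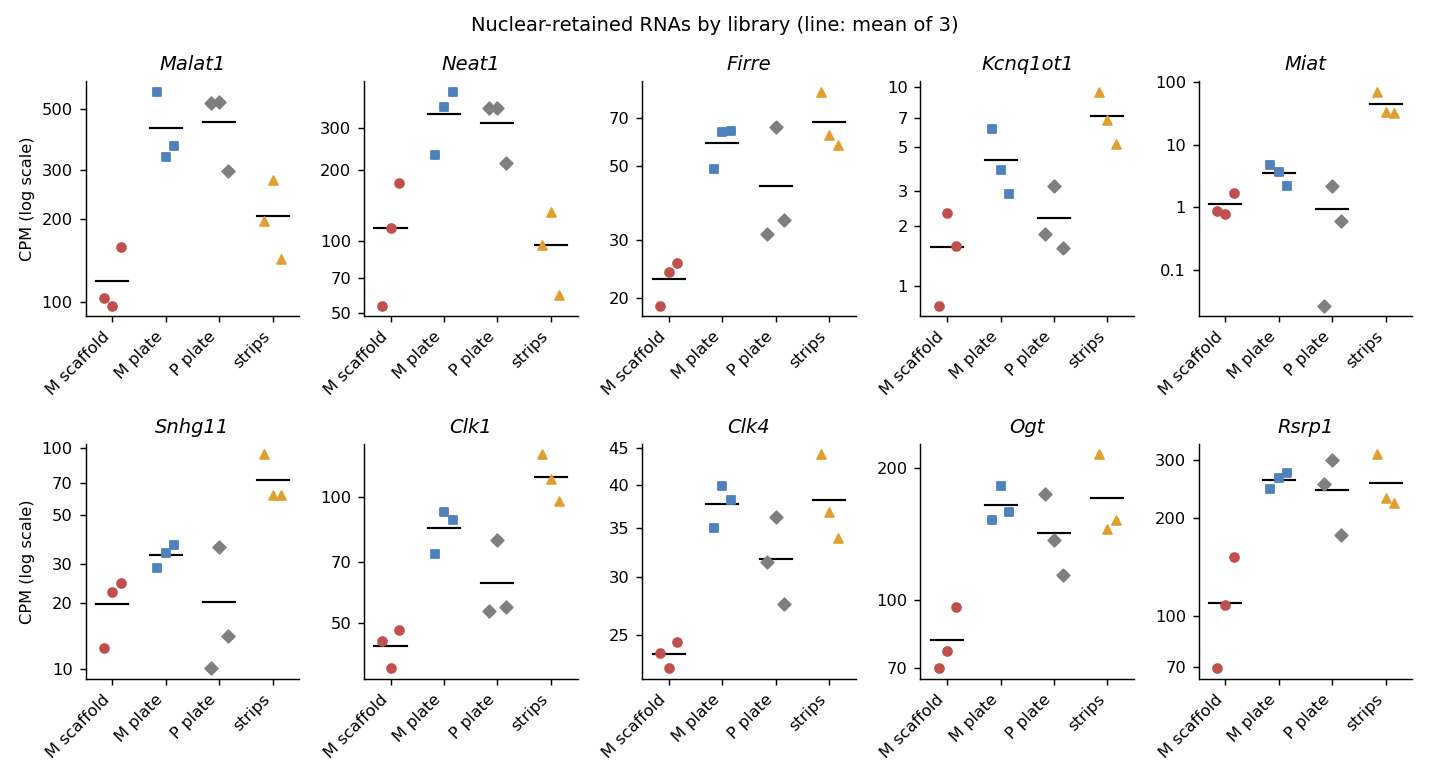
Level of each of the 10 RNAs in each library, in CPM on a log scale, with the 3 libraries of a group as points and their mean as a line. In every panel the 3 M scaffold points lie below the 3 M plate points, while the strips lie above all cultures for Miat, Snhg11 and Clk1 and below both plate groups for Malat1 and Neat1.

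Malat1 (ENSMUSG00000092341, chr19:5795690-5802672, minus strand) had the highest mean CPM per kilobase of exon of the 6 noncoding RNAs in each group. It had CPM values of 104, 97.3 and 158 in M scaffold, 577, 336 and 367 in M plate, 524, 528 and 297 in P plate and 197, 276 and 143 in strips. The M scaffold libraries were below all plate libraries and overlapped the strips. The means were 120 ± 33.4 CPM in M scaffold and 427 ± 131 CPM in M plate, a log2 fold change of -1.83 ± 0.33 (SE). The means differed 3.56-fold by the fit, more than for the other 9. That order depended on single libraries. Without M plate replicate 1, Neat1 was at -1.78 and Malat1 at -1.54, and without M scaffold replicate 2, Kcnq1ot1 was at -1.79 and Malat1 at -1.68.

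Neat1 (ENSMUSG00000092274, chr19:5824708-5845478, minus strand) had CPM values of 53.7, 114 and 175 in M scaffold, 231, 367 and 425 in M plate, 363, 364 and 214 in P plate and 96.4, 133 and 59.6 in strips. As with Malat1, both plate groups lay above M scaffold and strips. Those lower groups overlapped for each RNA, with the lowest mean in M scaffold for Malat1 and in strips for Neat1. The Neat1 log2 fold change of M scaffold over M plate was -1.58 ± 0.44. Its M scaffold libraries differed 3.25-fold among themselves, the widest spread there among the 10. The ratio of Neat1 to Malat1 CPM was low in replicate 1 of both M medium groups. It was 0.516, 1.17 and 1.10 in M scaffold replicates 1 to 3 and 0.400, 1.09 and 1.16 in M plate replicates 1 to 3. It was 0.690 to 0.721 in P plate and 0.417 to 0.491 in strips. The same-numbered libraries of these M medium groups also deviated together over all genes.

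Firre (ENSMUSG00000085396, chrX:50555744-50635321, minus strand) is an X-linked RNA with repeats that bind the nuclear matrix protein hnRNP U. It had CPM values of 19, 23.9 and 25.6 in M scaffold, 49.1, 63.5 and 63.8 in M plate, 31.2, 65.4 and 34.4 in P plate and 83.8, 62.1 and 57.8 in strips. M scaffold lay below all other 9 libraries. The log2 fold change of M scaffold over M plate was -1.36 ± 0.27.

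Kcnq1ot1 (ENSMUSG00000101609, chr7:143203458-143296549, minus strand) is an imprinted antisense RNA that silences neighbouring genes on the paternal chromosome. It had CPM values of 0.799, 2.33 and 1.59 in M scaffold, 6.13, 3.81 and 2.91 in M plate, 1.83, 3.20 and 1.56 in P plate and 9.47, 6.84 and 5.18 in strips. M scaffold overlapped P plate and lay below the other groups, with a log2 fold change of -1.44 ± 0.44 over M plate. The gene overlaps Kcnq1, a potassium channel gene on the opposite strand. The sources used here do not give the strand setting of the counting, so reads of this pair cannot be told apart where they overlap.

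Miat (ENSMUSG00000097767, chr5:112213228-112229395, minus strand), a nuclear RNA of neurons also called Gomafu, was mainly a transcript of the strips. It had CPM values of 0.891, 0.777 and 1.70 in M scaffold, 4.64, 3.60 and 2.20 in M plate, 0.0274, 2.21 and 0.606 in P plate and 69.2, 32.9 and 31.7 in strips. Counts were few in culture: 29, 25 and 188 in M scaffold, 162, 142 and 140 in M plate and 1, 72 and 19 in P plate. The log2 fold change of M scaffold over M plate was -1.58 ± 0.79, the largest error of the 10.

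Snhg11 (ENSMUSG00000044349, chr2:158375638-158386145, plus strand), a small nucleolar RNA host gene, had CPM values of 12.5, 22.3 and 24.5 in M scaffold, 28.6, 33.7 and 36.3 in M plate, 10.1, 35.9 and 14.2 in P plate and 93.8, 61.4 and 61.4 in strips. P plate replicate 2 stood above the other P plate libraries, and M scaffold overlapped P plate. The log2 fold change of M scaffold over M plate was -0.73 ± 0.42.

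Clk1 and Clk4 encode dual-specificity kinases that phosphorylate the SR proteins of nuclear speckles. Clk1 (ENSMUSG00000026034, chr1:58410189-58424066, minus strand) had CPM values of 45.2, 39.0 and 48.0 in M scaffold, 73.0, 92.0 and 87.9 in M plate, 53.4, 78.8 and 54.6 in P plate and 126, 110 and 97.6 in strips. M scaffold lay below all other libraries, and the log2 fold change over M plate was -0.94 ± 0.17. Clk4 (ENSMUSG00000020385, chr11:51261730-51281766, plus strand) had CPM values of 23.6, 22.5 and 24.4 in M scaffold, 35.0, 39.9 and 38.2 in M plate, 31.4, 36.2 and 27.5 in P plate and 44.1, 36.8 and 33.9 in strips. Its M scaffold libraries also lay below all others and were the closest to each other of any of the 10, with a coefficient of variation of 4.22%. The log2 fold change over M plate was -0.68 ± 0.13, next to the -0.73 ± 0.42 of Snhg11. Of this pair, Snhg11 had the smaller fall without M scaffold replicate 1, at -0.48, and without M plate replicate 3, at -0.65, where Clk4 was at -0.67. The ratio of Clk1 to Clk4 CPM was 1.74 to 1.97 in M scaffold, 2.08 to 2.31 in M plate, 1.70 to 2.18 in P plate and 2.86 to 3.00 in strips.

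Ogt (ENSMUSG00000034160, chrX:101640060-101684351, plus strand) encodes the enzyme that attaches O-GlcNAc to nuclear and cytoplasmic proteins. It had CPM values of 69.8, 76.6 and 96.4 in M scaffold, 152, 182 and 159 in M plate, 175, 137 and 114 in P plate and 215, 145 and 152 in strips. M scaffold lay below all other libraries, with a log2 fold change of -1.02 ± 0.20 over M plate. Rsrp1 (ENSMUSG00000037266, chr4:134923592-134927671, plus strand) encodes a protein rich in arginine and serine. It had CPM values of 69.3, 108 and 152 in M scaffold, 244, 264 and 274 in M plate, 254, 300 and 177 in P plate and 312, 230 and 222 in strips. M scaffold lay below the other 9 libraries here as well, with a log2 fold change of -1.25 ± 0.28 over M plate.

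Per kilobase of annotated exon, the levels spanned a wide range in every group. In M scaffold, Rsrp1 had the highest CPM per kilobase at 32.7 ± 12.3, followed by Malat1 at 17.2 ± 4.78 and Ogt at 10.1 ± 1.72. Neat1 at 5.50 ± 2.91, Clk1 at 5.42 ± 0.569 and Clk4 at 4.05 ± 0.171 came next and did not differ beyond the spread of Neat1. Firre at 2.77 ± 0.419 and Snhg11 at 2.32 ± 0.748 did not differ beyond their spread, and Miat at 0.121 ± 0.0539 and Kcnq1ot1 at 0.0169 ± 0.00822 were lowest. In M plate, Rsrp1 at 77.9 ± 4.49 and Malat1 at 61.1 ± 18.7 CPM per kilobase did not differ beyond the spread of Malat1. In strips the order changed most for Neat1, at 4.64 ± 1.77 CPM per kilobase, level with Miat at 4.80 ± 2.30 and below Snhg11 at 8.47 ± 2.20. The Kcnq1ot1 value is over a single annotated exon of 93092 bases. The Neat1 value is over 20771 bases, the length of its long transcript, whereas its polyadenylated isoform is shorter. Its rank per kilobase therefore depends on which isoform was counted. The kit named in the labels, TruSeq RNA Library Prep Kit v2, selects polyadenylated RNA, so levels of RNAs with and without a poly(A) tail are not on equal footing. Malat1 and Neat1 made up 39.5% to 47.1% of the summed CPM of the 10 in M scaffold, 50.8% to 57.6% in M plate, 54.7% to 61.4% in P plate and 23.4% to 37.4% in strips.

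**Figure D2:**
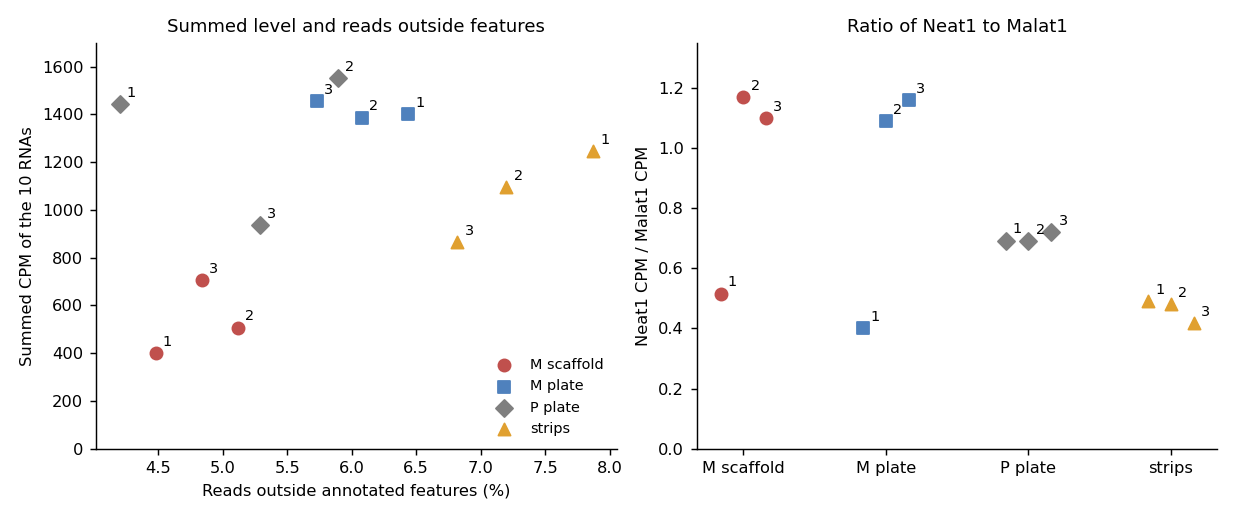
Left, summed CPM of the 10 RNAs against the percentage of reads outside annotated features, 1 point per library with its replicate number. Right, ratio of Neat1 to Malat1 CPM in each library. The M scaffold libraries have the lowest sums, 399 to 707 CPM, and replicate 1 of each M medium group has a lower ratio than replicates 2 and 3.

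Reads outside annotated features moved with the fall: they were 4.48% to 5.12% in M scaffold and 5.73% to 6.44% in M plate, with no overlap. Their part in the result was not tested. P plate replicate 1 had the lowest such share, 4.20%, with a summed level of 1444 CPM.

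M plate, set against P plate, asks what the medium does on a plate. For all 10 RNAs the libraries of M plate overlapped those of P plate, where 22.6% of the genes tested lay above without overlap and 19.3% lay below. The median log2 fold change was 0.34, with a range of -0.07 to 1.88, and all genes had a median of -0.00. Malat1 at -0.07 ± 0.32, Neat1 at 0.12 ± 0.43 and Rsrp1 at 0.10 ± 0.27 were close to 0, and Miat at 1.88 ± 0.83, Kcnq1ot1 at 0.96 ± 0.44 and Snhg11 at 0.71 ± 0.42 were farther from it. Without P plate replicate 2, Miat was at 3.49 and Snhg11 at 1.43, and limma-voom put Miat at 3.11. Without M plate replicate 1, Kcnq1ot1 was at 0.61. In this comparison 14.3% of genes were called higher and 10.6% lower, but no call is given for the 10, since M plate entered their choice.

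M scaffold against P plate shares the M scaffold libraries with the choice and is likewise described without a call. Of the 10 RNAs, 7 were lower in M scaffold with no overlap, against 15.0% of the genes tested. Malat1 had a log2 fold change of -1.91 ± 0.33, Neat1 of -1.46 ± 0.44, Rsrp1 of -1.15 ± 0.28 and Firre of -0.93 ± 0.27. Ogt had -0.81 ± 0.20, Clk1 -0.50 ± 0.17 and Clk4 -0.43 ± 0.13. The other 3 overlapped: Kcnq1ot1 at -0.48 ± 0.44, Snhg11 at -0.02 ± 0.42 and Miat at 0.30 ± 0.83. The median of the 10 was -0.66.

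**Figure D3:**
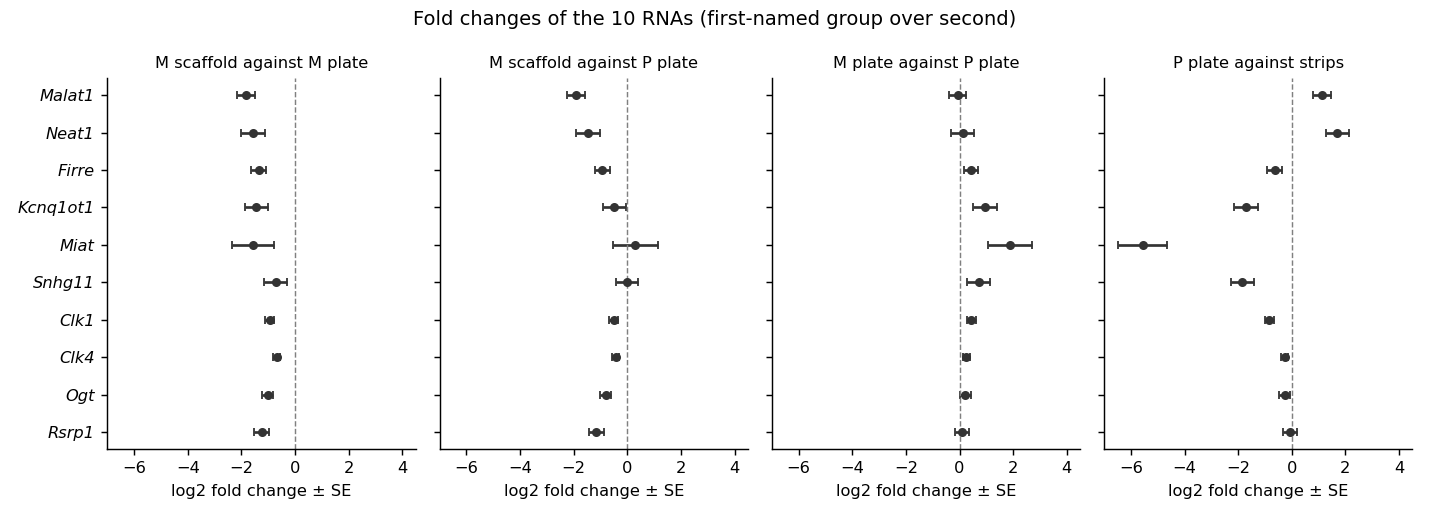
Log2 fold change of each RNA with its SE in 4 comparisons, the first-named group over the second, from the fit over all libraries. Values for M scaffold against M plate lie between -1.83 and -0.68, those for M plate against P plate lie near or above 0, and those for P plate against strips run from -5.56 for Miat to 1.70 for Neat1.

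P plate against strips is the comparison that shares no library with the choice, so the 10 were tested in it. Malat1 and Neat1 were higher in P plate than in the native tissue, while Miat, Snhg11, Kcnq1ot1 and Clk1 were lower. By edgeR's quasi-likelihood test with Benjamini-Hochberg adjustment over all genes, 2 of the 10 were called higher and 4 lower, where 30.5% of all genes were called higher and 32.7% lower. The members' share is thus near the background, and the split is a statement about single RNAs. By libraries, 2 lay above without overlap and 4 below, against 31.7% and 36.1% of genes.

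Malat1 averaged 450 ± 132 CPM in P plate and 205 ± 67.1 CPM in strips, a log2 fold change of 1.13 ± 0.33 with an adjusted p of 0.0113 from edgeR. Without strips replicate 3 it was 0.91, with an adjusted p of 0.0505. Neat1 averaged 314 ± 86.3 CPM in P plate and 96.4 ± 36.7 CPM in strips, a log2 fold change of 1.70 ± 0.44 with an edgeR adjusted p of 0.00625. For both, each P plate library was above each strips library.

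Miat averaged 0.949 ± 1.13 CPM in P plate and 44.6 ± 21.3 CPM in strips, a log2 fold change of -5.56 ± 0.92 with an edgeR adjusted p of 0.000414. P plate replicate 1 held a single count of it. Snhg11 averaged 20.1 ± 13.8 CPM in P plate and 72.2 ± 18.7 CPM in strips, at -1.85 ± 0.43 with an edgeR adjusted p of 0.00360. Kcnq1ot1 averaged 2.20 ± 0.876 CPM in P plate and 7.17 ± 2.16 CPM in strips, at -1.70 ± 0.44 with an edgeR adjusted p of 0.00650. Clk1 averaged 62.3 ± 14.3 CPM in P plate and 111 ± 14.3 CPM in strips, at -0.84 ± 0.17 with an edgeR adjusted p of 0.00149. These 4 RNAs did not overlap between the groups.

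The other 4 were not called in this comparison. Firre was at -0.64 ± 0.27 with an edgeR adjusted p of 0.0603, and Clk4 was at -0.27 ± 0.13 with 0.0863. Ogt was at -0.26 ± 0.20 with an edgeR adjusted p of 0.267, and Rsrp1 at -0.06 ± 0.27 with 0.850. Firre passed under some other settings, among them DESeq2 with an adjusted p of 0.0348. Clk4 passed in edgeR without P plate replicate 2, with an adjusted p of 0.0300, and without strips replicate 3, with 0.0459.

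The M medium cultures, set against strips, are given as values without calls, since both groups entered the choice of the 10. The choice favours low values in M scaffold and high values in M plate. In M scaffold against strips, 8 of the 10 were lower without overlap, against 34.9% of genes, and the median log2 fold change was -1.28. The overlapping pair was Malat1 at -0.78 ± 0.32 and Neat1 at 0.25 ± 0.43. In M plate against strips, 2 lay above without overlap, against 36.2% of genes, and 3 lay below, against 37.0%, with a median of -0.13. Those above were Malat1 at 1.06 ± 0.33 and Neat1 at 1.82 ± 0.44, and those below were Miat at -3.69 ± 0.82, Snhg11 at -1.13 ± 0.42 and Clk1 at -0.40 ± 0.17. The M plate median turned to 0.01 without strips replicate 1.

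Markers of other cell types moved with these groups. Enteric neuron markers (10 genes) summed to 409 to 600 CPM in M scaffold, 135 to 258 CPM in M plate, 29.8 to 71.2 CPM in P plate, where Chat was at 0 in all 3 libraries, and 1297 to 1731 CPM in strips. Enteric glia markers (8 genes) summed to 349 to 791 CPM in M scaffold, 195 to 248 CPM in M plate, 28.5 to 46.6 CPM in P plate and 203 to 263 CPM in strips. Endothelial markers (10 genes) summed to 246 to 1633 CPM in M scaffold, 1807 to 2199 CPM in M plate, 21.4 to 68.5 CPM in P plate and 164 to 271 CPM in strips. Between M scaffold and M plate, 2 of 10 neuron and 4 of 8 glia markers rose and 1 of 10 endothelial markers fell by the edgeR test. With replicate number as a block within the 6 libraries, 6 of the 10 neuron markers were called, each higher. Over all genes that block called 787 higher and 931 lower. Of 4 markers of interstitial cells of Cajal 1 rose, with sums of 80.9 to 167 CPM in M scaffold, 62.3 to 83.6 CPM in M plate, 20.7 to 54.0 CPM in P plate and 397 to 501 CPM in strips. The part of any cell type in the levels of the 10 RNAs was not tested.

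Of the remaining marker lists, none had a called gene between M scaffold and M plate in edgeR. At an unadjusted p under 0.05 there were 2 smooth muscle, 2 fibroblast, 1 macrophage, 0 mesothelial and 0 epithelial markers, and DESeq2 called 1, 1, 0, 0 and 0 of them and limma-voom 0 of each list. Over all 17700 genes tested, 3798 had an unadjusted p under 0.05 in this comparison. The block within the 6 libraries called 1 smooth muscle and 1 fibroblast marker higher and 1 macrophage and 2 mesothelial markers lower. Smooth muscle markers (8 genes) summed to 3379 to 10541 CPM in M scaffold, 2866 to 5152 CPM in M plate, 5186 to 10799 CPM in P plate and 33844 to 35277 CPM in strips. Fibroblast markers (7 genes) summed to 28813 to 35796 CPM in M scaffold, 24396 to 26693 CPM in M plate, 11180 to 14215 CPM in P plate and 10206 to 12313 CPM in strips. Macrophage markers (6 genes) summed to 1505 to 3618 CPM in M scaffold, 2843 to 3752 CPM in M plate, 2011 to 17923 CPM in P plate and 135 to 182 CPM in strips. Mesothelial markers (5 genes) summed to 866 to 1373 CPM in M scaffold, 1643 to 2083 CPM in M plate, 296 to 2955 CPM in P plate and 2467 to 2884 CPM in strips. Epithelial markers (5 genes) reached at most 7.66 CPM in any culture, with Cdx2 at 0, and 48.9 to 204 CPM in strips.

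Genes of the nuclear RNA lists around these RNAs were compared between M scaffold and M plate in the same fit. Of 160 tested genes in 10 lists of nuclear RNA biology that hold none of the 10, 8 were called by edgeR. They were 2 higher, 1.25% against 1.53% of all genes, and 6 lower, 3.75% against 1.64% of all genes. DESeq2 called 7 higher, 4.38% against 6.47% of all genes, and 23 lower, 14.4% against 4.93%. These lists were chosen with the fall of the 10 known, and the difference from all genes was not tested. Since same-numbered libraries of these groups deviated together, the fit with replicate number as a block is given beside it. It called 2 over all 12 libraries, 1 higher and 1 lower, and 19 within the 6 compared, 3 higher and 16 lower. Over all genes the block called 222 higher and 169 lower in the 12 libraries, and 787 higher and 931 lower within the 6. Leaving out a library gave 0 calls without M plate replicate 1, 2 or 3 or M scaffold replicate 3, 1 without M scaffold replicate 1 and 3 without M scaffold replicate 2. 

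Of 26 nuclear speckle and SR proteins, 11 had an unadjusted p under 0.05, DESeq2 called 9 and limma-voom 4. By edgeR 0 rose and 2 fell, with a median log2 fold change of -0.27. They were Arglu1, a splicing and transcription cofactor, at -0.95 ± 0.20 with an edgeR adjusted p of 0.0388, and Luc7l, related to a U1 snRNP protein of yeast, at -0.52 ± 0.12 with 0.0469. Over all 12 libraries the block gave an edgeR adjusted p of 0.0516 for Arglu1 and 0.0769 for Luc7l. Within the 6 libraries compared the block gave an edgeR adjusted p of 0.0208 for Arglu1 and 0.0433 for Luc7l. Of 17 paraspeckle proteins, which bind Neat1, none was called by edgeR, 3 had an unadjusted p under 0.05, DESeq2 called 3 and limma-voom 1, and the median was -0.18. Of 27 transcripts known for intron retention, the same pair, which is on both lists, fell, with a median of -0.34. Of the 27, 16 had an unadjusted p under 0.05, DESeq2 called 9 and limma-voom 4. Over all 17700 genes tested, 3798 had such a p, DESeq2 called 2019 and limma-voom 1004. The block within the 6 libraries called 7 of the 27 and 4 of the 26 speckle proteins, each lower. Over all genes it called 931 lower. Of 13 kinases of the CLK, SRPK and DYRK families, which include no member here, Srpk2, an SR protein kinase, rose by 0.48 ± 0.10 with an edgeR adjusted p of 0.0361, or 0.0517 with the block over all 12 libraries. Prpf4b, a kinase of the spliceosome, fell, at -0.47 ± 0.11 with an edgeR adjusted p of 0.0473, or 0.0480 with the block over all 12 libraries. The block within the 6 libraries gave an edgeR adjusted p of 0.0548 for Srpk2 and 0.0502 for Prpf4b.

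Of 21 other nuclear and chromatin-bound noncoding RNAs, 1 rose and 2 fell. Pvt1, the RNA next to Myc, was at 0.87 ± 0.20 with an edgeR adjusted p of 0.0475. Meg3, an imprinted RNA of the Dlk1 domain, averaged 15.0 ± 2.73 CPM in M scaffold and 44.4 ± 2.26 CPM in M plate, at -1.56 ± 0.35 with an edgeR adjusted p of 0.0433. Fendrr, an RNA of lateral mesoderm next to Foxf1, was at -0.83 ± 0.18 with an edgeR adjusted p of 0.0428. With the block over all 12 libraries, the edgeR adjusted p was 0.0456 for Pvt1, 0.0640 for Meg3 and 0.0637 for Fendrr. Within the 6 libraries compared it was 0.0384 for Pvt1, 0.0164 for Meg3 and 0.0362 for Fendrr. H19, a growth-related imprinted RNA, had values in the other direction, 4960 ± 678 CPM in M scaffold and 2374 ± 384 CPM in M plate, and was not called, with an edgeR adjusted p of 0.0576. For H19 the block gave an adjusted p of 0.0768 over all 12 libraries and 0.0386 within the 6 compared, where 2 of the 21 were called higher and 4 lower.

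Of 10 tested genes listed for O-GlcNAc and the hexosamine pathway, which makes the substrate of Ogt, edgeR, DESeq2 and limma-voom each called 0 between M scaffold and M plate. Of them 0 had an unadjusted p under 0.05, and the median was 0.01. The list held 11 genes, and the enzyme that removes O-GlcNAc was not among the 10 found by symbol. In M plate against P plate 5 of the 10 fell by edgeR, against 10.6% of all genes. In P plate against strips 8 rose, against 30.5% of all genes. With the replicate block within the 6 libraries compared, 0 of the 10 fell in M plate against P plate and 7 rose in P plate against strips. Over all genes that block called 358 lower and 3374 higher in these comparisons. Gfpt1, the first enzyme of the hexosamine pathway, averaged 91.1 CPM in M plate, 125 CPM in P plate and 52.1 CPM in strips. Between M scaffold and M plate, edgeR called 0 of 14 small nucleolar RNA host genes, with 3 at an unadjusted p under 0.05. DESeq2 called 1 and limma-voom 0. Of 17 genes of the nuclear exosome and its adaptors, which degrade nuclear RNA, edgeR called 0, with 2 at an unadjusted p under 0.05 and 1 and 0 by the other tools. Of 16 genes of mRNA export and the nuclear pore basket, edgeR called 0, with 3 at an unadjusted p under 0.05 and 1 and 0 by the other tools. The background for the counts in M scaffold against M plate is 3798 of all 17700 genes at an unadjusted p under 0.05.

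**Figure D4:**
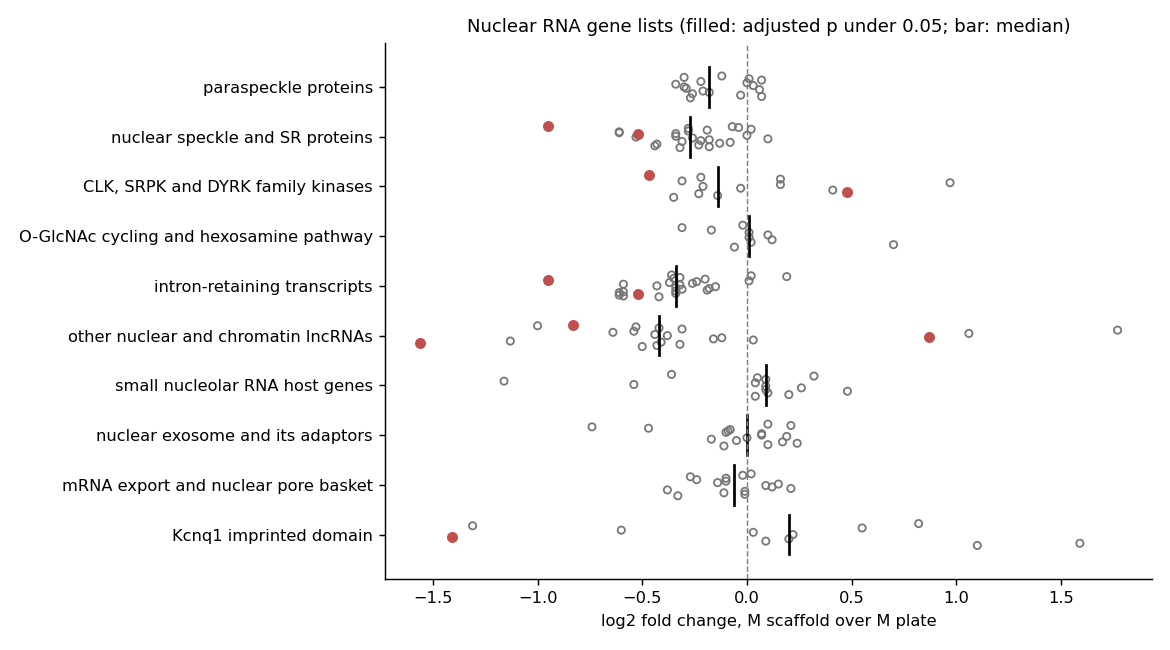
Log2 fold change of M scaffold over M plate for the tested genes of 10 lists of nuclear RNA biology, which hold none of the 10 RNAs. Each point is a gene, filled where the edgeR adjusted p is under 0.05, and the bar is the list median, which runs from -0.42 for other noncoding RNAs to 0.20 for the Kcnq1 domain.

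The same lists were counted in the comparisons with P plate. In M plate against P plate, 8 of the 21 other nuclear noncoding RNAs rose and 1 fell, against 14.3% and 10.6% of all genes. H19 was at 3.36 and Fendrr at 1.68 on the log2 scale. None of 26 speckle or 17 paraspeckle proteins was called by edgeR. Of these, 3 and 4 had an unadjusted p under 0.05, DESeq2 called 2 and 3, and limma-voom called 0 and 1. Over all 17700 genes tested, 6685 had an unadjusted p under 0.05 in M plate against P plate. In P plate against strips, 1 of the 21 rose and 12 fell, among them Fendrr at -4.70 and Snhg14 at -3.16. There 4 speckle proteins rose and 9 fell, with the SR proteins Srsf3 at -1.05 and Srsf7 at -0.94, against the background of 30.5% and 32.7% given above.

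Annotated long noncoding RNA genes other than the 10 had a median log2 fold change of -0.24 in M scaffold against M plate, while protein-coding genes had 0.02. Of 1513 tested noncoding genes, 8 or 0.529% were called higher and 47 or 3.11% lower. Of 15259 protein-coding genes, 260 or 1.70% were called higher and 200 or 1.31% lower. The difference between the classes was not tested.

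Of 21 tested neighbours and overlapping genes of the 10, edgeR called 0 higher and 2 lower between M scaffold and M plate, with a median log2 fold change of -0.24. The 2 are 9.52% of the neighbours, against 1.64% of all genes called lower, and both lie at Clk4. Frmd8, 4224 bases from Neat1, was at 0.29 ± 0.12 and was not called, with an edgeR adjusted p of 0.192. Malat1 and Neat1 lie 22036 bases apart. The 2 called were Col23a1, a transmembrane collagen gene 8154 bases from Clk4, at -1.80 ± 0.38 with an edgeR adjusted p of 0.0399, and Gm25082, a small RNA gene inside Clk4, at -2.22 ± 0.37 with 0.0201. Reads of Gm25082 and of Clk4, which contains it, cannot be told apart where the genes overlap.

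In the Kcnq1 domain 0 of 11 genes rose and 1 fell, Tspan32, at -1.41 ± 0.29 with an edgeR adjusted p of 0.0377, at 0.394 CPM in M scaffold and 1.04 CPM in M plate. With the block its edgeR adjusted p was 0.0515 over all 12 libraries and 0.0445 within the 6 compared. Cdkn1c, a cell cycle inhibitor that Kcnq1ot1 silences in cis, was at 1.59 ± 0.44 with an edgeR adjusted p of 0.0750 and was not called. The block over all 12 libraries gave it an adjusted p of 0.0875 and the block within the 6 libraries compared 0.0269, under which 1 gene of the domain was called higher and 2 lower. Kcnq1 itself was at 1.10 ± 0.89 with an edgeR adjusted p of 0.511.

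The 10 genes have a median of 8189 bases of annotated exon, against 3994 over the 17676 tested genes with a matched length. They lie on 8 chromosomes. Across the 12 libraries, which form 4 groups, Firre, Clk1 and Clk4 followed the mean of the other members most closely, with Pearson r of 0.966, 0.949 and 0.923 on log2 CPM. Malat1 at 0.319 and Neat1 at 0.0483 followed it least, and both were low in the strips, where the others were high or at plate level. The 10 were chosen for being low together in M scaffold against M plate, so the choice favours high r across the 12 libraries. With group means taken out, Snhg11 at 0.898 and Firre at 0.891 were highest, Malat1 was at 0.352 and Neat1 at 0.462, and Ogt at 0.314 was lowest. Members entered these means as centred log2 CPM without scaling, so Miat, which ran from -5.38 to 4.57, weighed most. In P plate replicate 1, on 1 count, Miat was at -5.38 and the mean of the 10 at -0.57. The ranking that follows uses the same mean of the 10, so the choice shapes it too. Among the 8396 genes averaging 20 CPM or more, those most like the mean of the 10 over the 12 libraries were Ankrd16 at 0.950, Mif4gd at 0.947, Leng8 at 0.944, Tia1 at 0.933 and Arglu1 at 0.927. Kmt5c and Ppox at 0.921, Fam193b and Clasrp at 0.919 and Meg3 at 0.918 followed. Leng8 averaged 69.8 CPM in M scaffold, 178 CPM in M plate, 121 CPM in P plate and 175 CPM in strips. Those most like Malat1 were Adcy7 at 0.867, Chfr at 0.865, AW549877 at 0.860, Srrm2 at 0.857 and Zmym6 at 0.852. Srrm2, a core protein of nuclear speckles, averaged 409 CPM in M scaffold, 556 CPM in M plate, 512 CPM in P plate and 456 CPM in strips.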

How the data were processed

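The authors deposited raw counts per Ensembl gene for 12 libraries, whole numbers with 1 column per sample. Per the submitters' processing notes, STAR 2.6.0 and the builds GRCm38 and mm10 were used. The sources used here do not give the counting program, its strand setting or how the 2 technical replicates that the series text mentions were joined. The 5 summary entries of the table stayed out of library sizes and tests and gave the shares of reads outside features.

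The counts were fitted with edgeR 4.0.16 in R 4.3.3 (filterByExpr, TMM, quasi-likelihood F test, all 12 libraries, group only, 8 residual degrees of freedom, adjusted p under 0.05 over 17700 genes), after the scripts were tested on simulated data. DESeq2 1.42.0 and limma 3.58.1 (voom) were alternatives. P-values are two-sided. Floors cover counting error only. Replicates are biological per the labels.

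The members and lists were chosen with earlier results of these data known. The text names the 10 RNAs, some of their nearest tested neighbours, called genes with the lowest p of each list and the genes most correlated with the members. H19, Gfpt1, Cdkn1c and the examples of other comparisons are named under the same rule.

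Same-numbered libraries of M scaffold and M plate deviated together (r of 0.290, 0.196 and 0.304 over genes, each over 0.1 and each highest with its own number), so the numbers were taken to pair these groups. In all, 4 of 18 same-number pairs over the 6 comparisons were over 0.1. Gene coordinates and exon lengths come from GENCODE M21 on GRCm38.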

Additional observations from a re-analysis of the deposited data

How the results depend on the processing

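All 140 alternative values of the 10 RNAs and settings for M scaffold against M plate kept their direction, which the choice of members favours. Leaving out a library moved their median from -1.31 to between -1.45 and -1.06. The count of genes called in that comparison was 562, against 2019 with DESeq2 (1146 higher and 873 lower, where edgeR gave 271 and 291), 1004 with limma-voom, 1068 with only the 6 libraries compared and 1718 with the replicate block within them. The replicate block over all 12 libraries gave 391, of which 333 were among the 562. Without M scaffold replicates 1, 2 and 3 it was 308, 348 and 214, and without M plate replicates 1, 2 and 3 it was 146, 18 and 54. The nuclear list genes called were 8, against 4 with no filter on low counts, 30 with DESeq2, 14 with limma-voom, 2 with the replicate block over all 12 libraries, 15 with only the 6 libraries and 19 with the block within them, and 0 to 3 without one library. Genes called between M plate and P plate were 4400, against 2846 with only the 6 libraries, 1300 with the replicate block within them and 2630 to 5188 without one library. In P plate against strips 6 members were called, and 6 to 9 under the alternatives, with 9 where no scaling factors were used. That setting moved the median of all genes from -0.03 to -0.30, and with it Firre (-0.89), Clk4 (-0.54) and Ogt (-0.54) passed. Rsrp1 changed sign there, from -0.24 without P plate replicate 2 to 0.09 without P plate replicate 3 or strips replicate 1. The causes were not tested. Depth limits Miat and Kcnq1ot1, with 1 to 214 counts per library in culture.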
